A study of Mus musculus with 6 samples.

Results

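The skeletal muscle microRNAs miR-206, miR-133 and miR-1 were examined in chromatin immunoprecipitation sequencing (ChIP-seq) data for Sox6 and RNA polymerase II (Pol II). The genes were taken by name: Mir206, Mir133b, Mir133a-1 and Mir133a-2, together with the miR-1 genes that lie beside the miR-133a genes. The annotation of NCBI Build 37 (mm9), the build of the deposited files, holds 6 of these hairpins (Mir206, Mir133b, Mir1a-1, Mir133a-2, Mir133a-1 and Mir1b) among 1577 miRNA hairpins in all. They form 3 clusters. Mir1a-2, for which Mir1b is listed as the antisense gene in RefSeq, has no entry of its own in this annotation and was read together with Mir1b. Each cluster was described by the reads over it, by the deposited peaks within 50 kb of it, and by the transcript or host gene around it.

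All 6 libraries came from wild type C57BL/6 primary myoblasts of E18.5 fetal limb muscle, at a passage number given as 17, that had formed myotubes during 48 h in DMEM with 2% horse serum. Chromatin was fixed with disuccinimidyl glutarate and formaldehyde. Sox6 (2 libraries), Pol II (2 libraries) and unprecipitated input DNA (2 libraries) made up the 3 groups, each with a replicate 1 and a replicate 2. There was no Sox6 mutant and no other time point among these libraries, so each comparison is of an immunoprecipitation with input. The cells were a culture of limb myoblasts, which can hold other cell types. Reads of overlapping genes on opposite strands cannot be told apart in ChIP-seq.

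miR-1, miR-133 and miR-206 are the best known muscle-specific microRNAs (myomiRs). They are cut from long Pol II transcripts by Drosha and Dgcr8 in the nucleus and by Dicer1 in the cytoplasm, and then guide Argonaute proteins to messenger RNAs that carry a match to the seed at the 5' end of the microRNA. In textbook accounts miR-1 and miR-206 promote myoblast differentiation, miR-133 is tied to myoblast proliferation as well as differentiation, and miR-206 is restricted to skeletal muscle while miR-1 and miR-133a are also made in the heart. Sox6 is an SRY-related HMG box factor that represses slow fibre genes in fetal muscle, and Pol II over a locus is read as a sign of transcription.

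The mature sequences below were taken from RefSeq (GRCm38.p6), where 3 of the 6 hairpin genes (Mir206, Mir133b and Mir1a-1) matched an entry. They are shown because the seeds separate the families that share a cluster. Capitals mark the seed, bases 2 to 8.
mmu-miR-206-3p: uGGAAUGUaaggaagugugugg
mmu-miR-133b-3p: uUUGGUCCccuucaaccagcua
mmu-miR-206-5p: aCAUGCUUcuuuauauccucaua
mmu-miR-1a-1-5p: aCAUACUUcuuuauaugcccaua
The arms miR-206-3p and miR-133b-3p come from neighbouring hairpins of the same cluster and have different seeds. The 5p arms of Mir206 and Mir1a-1, which lie on different chromosomes, are the same at 20 of 23 positions. They differ by the substitutions G5A, C17G and U19C, counted from 1 at the 5' end, with the miR-206 base given before the position and the miR-1 base after it. The first of these lies in the seed of the 5p arm. No entry was matched for the 3p arm of miR-1. The 3p seeds of miR-206 and miR-1 were therefore not compared, and the 5p difference says nothing of them.

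The starts of 2 long non-coding RNAs that contain the hairpins were placed by finding their RefSeq promoter sequences in the mm9 genome, where each matched once. Lincmd1, the host of Mir206 and Mir133b, starts at position 20659963 of chromosome 1 on the plus strand, 9.13 kb before Mir206 and 12.9 kb before Mir133b. Mir1a-1hg, the host of Mir1a-1 and Mir133a-2, starts at position 180120309 of chromosome 2 on the plus strand, 3.44 kb before Mir1a-1 and 12.8 kb before Mir133a-2. Both promoters are shown from 250 bases before the start to base 50 of the transcript, because they hold the annotated starts of the host RNAs. These data do not locate the start used for each hairpin. Capitals mark E-boxes (CAGCTG, or CAGGTG and its reverse complement CACCTG), the sites known to bind MyoD family factors, and the consensus MEF2 site.
Lincmd1 promoter, chr1:20659713-20660012, plus strand: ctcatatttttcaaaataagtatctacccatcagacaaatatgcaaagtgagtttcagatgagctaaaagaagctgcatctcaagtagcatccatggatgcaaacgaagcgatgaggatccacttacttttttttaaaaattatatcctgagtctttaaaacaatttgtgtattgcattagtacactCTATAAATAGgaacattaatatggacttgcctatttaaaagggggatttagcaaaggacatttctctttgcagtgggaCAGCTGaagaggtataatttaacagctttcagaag
Mir1a-1hg promoter, chr2:180120059-180120358, plus strand: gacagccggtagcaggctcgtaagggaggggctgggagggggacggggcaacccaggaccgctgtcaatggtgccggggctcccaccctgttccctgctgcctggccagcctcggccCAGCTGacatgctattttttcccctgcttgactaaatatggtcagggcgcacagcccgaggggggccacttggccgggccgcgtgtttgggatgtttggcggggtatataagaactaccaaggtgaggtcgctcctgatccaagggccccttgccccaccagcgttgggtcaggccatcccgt
The Lincmd1 window held a MEF2 site beginning 63 bases before the start and an E-box beginning 15 bases after it, and the Mir1a-1hg window held an E-box beginning 133 bases before the start and no MEF2 site. Of all 32851 RefSeq promoters of 300 bases, 32.9% held an E-box of these letters and 0.557% a MEF2 site, on either strand. A match is a description of the sequence and not of binding.

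The deposited list of Sox6 peaks common to both replicates has 1066 entries, of which 5 lay within 50 kb of the hairpins. Of these 5 peaks, 3 were beside Mir206 and Mir133b and 2 beside Mir1a-1 and Mir133a-2. The central 200 bases of each are shown in mm9, plus strand, because they mark where the Sox6 reads of both experiments met. Capitals mark E-boxes as above and Sox motifs (ACAAAG or ACAATG, on either strand).
Common peak 11.2 kb before Mir206, chr1:20657781-20657980: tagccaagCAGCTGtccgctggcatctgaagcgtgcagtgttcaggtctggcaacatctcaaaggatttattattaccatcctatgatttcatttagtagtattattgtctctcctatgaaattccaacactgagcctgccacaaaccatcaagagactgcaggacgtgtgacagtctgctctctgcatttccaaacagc
Common peak 2.54 kb after Mir133b, chr1:20675411-20675610: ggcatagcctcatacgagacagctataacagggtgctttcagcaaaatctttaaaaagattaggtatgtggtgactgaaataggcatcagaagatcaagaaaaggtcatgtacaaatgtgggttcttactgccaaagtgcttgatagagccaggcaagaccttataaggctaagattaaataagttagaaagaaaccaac
Common peak 3.36 kb after Mir133b, chr1:20676231-20676430: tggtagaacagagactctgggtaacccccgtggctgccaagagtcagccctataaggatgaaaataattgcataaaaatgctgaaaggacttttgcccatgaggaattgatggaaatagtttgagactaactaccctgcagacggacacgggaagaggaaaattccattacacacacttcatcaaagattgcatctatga
Common peak 1.83 kb after Mir133a-2, chr2:180134921-180135120: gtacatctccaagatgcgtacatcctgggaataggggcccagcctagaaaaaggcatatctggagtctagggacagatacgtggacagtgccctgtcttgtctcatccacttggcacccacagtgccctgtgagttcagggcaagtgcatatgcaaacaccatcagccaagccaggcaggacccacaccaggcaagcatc
Common peak 4.28 kb after Mir133a-2, chr2:180137371-180137570: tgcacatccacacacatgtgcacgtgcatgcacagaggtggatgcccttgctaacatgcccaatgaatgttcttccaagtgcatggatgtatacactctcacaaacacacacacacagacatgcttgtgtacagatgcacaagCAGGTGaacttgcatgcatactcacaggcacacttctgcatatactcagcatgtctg
None of the 5 windows held a Sox motif of these letters, whereas 58.4% of the central 200 bases of all 1066 common peaks and 26.2% of the windows 2 kb to either side of them did. An E-box was present in 2 of the 5 windows, compared with 66.4% of all common peaks and 22.1% of the flanking windows. The Runx letters CCACA (either strand) were present in 4 of the 5 windows in 68.9% of all common peaks and in 45.7% of the flanking windows, and the Tead letters GGAATG in none of the 5, in 28.4% of all and in 9.80% of the flanking windows. With 5 windows these are counts only, and absence of a motif says nothing of the factor. Only the letters given were counted, so other forms of a Sox motif may be present in these windows.

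The Sox6 libraries held 2985437 and 1468604 aligned reads, the Pol II libraries 1538757 and 2762155, and the inputs 21973495 and 24249850. A read counts as in a region when its 5' end is, RPM is the read number scaled to the total of the library, and RPKM is RPM per kilobase. A gene called lower than input thus has a smaller share of the library's reads than in input, and loss of Pol II from it was not tested. The identity of the culture was checked with Pol II over marker genes, tested with limma (see the window test below). All 9 myotube markers had more Pol II than input, with Actc1 at 100.04 and 98.9 RPKM in replicates 1 and 2, Myh3 at 73.3 and 77.8 RPKM and Acta1 at 66.7 and 69.2 RPKM, against a background of 36.3% of 22662 genes called higher and 23.4% called lower. None of the 6 fibroblast, 3 hepatocyte or 3 neuron markers was called higher, and 4, 1 and 3 of them were called lower, while 1 fibroblast marker was called higher when either Pol II library was left out. Of the haematopoietic markers, Cd68 was called higher (7.03 and 7.83 RPKM), Ptprc lower (0.173 and 0.138 RPKM), and Hbb-b1 had too few input reads for the test. Summed over each list, Pol II was 380 and 399 RPKM for the myotube markers and 2.15 and 1.76 RPKM for the fibroblast markers.

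For the comparison with input, each miRNA locus was taken from 10 kb before its hairpin to 2 kb after it, hairpins on the same strand within 10 kb being joined, which gave 1266 loci of which 1253 had at least 10 input reads and were tested with limma. Over the window of Mir206 and Mir133b (chr1:20659091-20674968) the reads numbered 3025 and 5995 for Pol II and 388 and 405 for input. In RPKM this was 124 and 137 for Pol II against 1.11 and 1.05 for input. The Pol II libraries were therefore more than 100-fold above input in both replicates, at 111-fold and 129.96-fold. The log2 ratio was 6.91 ± 0.08 (SE, n = 2 against 2, limma adjusted p = 1.46e-08). This was the highest Pol II level of all 1266 miRNA loci in each replicate. It was also above the mean Pol II RPKM of every one of the 22662 tested gene spans, the next being Actc1, the cardiac alpha-actin of fetal muscle. Actb, a reference gene, stood at 26.4 and 35.8 RPKM.

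The cluster of Mir1a-1 (chr2:180123753-180123829) and Mir133a-2 (chr2:180133084-180133187) had the next highest Pol II level of the miRNA loci. Over its window (chr2:180113753-180135187), reads numbered 1156 and 2108 for Pol II and 307 and 349 for input, or 35.0 and 35.6 RPKM against 0.652 and 0.671 RPKM. The log2 ratio was 5.74 ± 0.08 (SE, n = 2 against 2, limma adjusted p = 1.65e-08). Of the tested gene spans, 11 had a higher mean Pol II RPKM. The replicates of the 2 clusters did not overlap, with Mir206 and Mir133b higher in each.

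The third cluster, Mir133a-1 (chr18:10782897-10782983, minus strand) and Mir1b (chr18:10785444-10785565, plus strand), lies inside Mib1, a gene on the plus strand for a ubiquitin ligase of Notch ligands. Because the hairpins are annotated on opposite strands they have separate windows, which overlap and share reads. Over the window of Mir133a-1, 368 and 575 Pol II reads stood against 279 and 312 input reads, or 19.8 and 17.2 RPKM against 1.05 and 1.06 RPKM (log2 ratio 4.12 ± 0.10, SE, n = 2 against 2, limma adjusted p = 1.72e-07). Over that of Mir1b, 359 and 588 Pol II reads stood against 285 and 262 input reads, or 19.2 and 17.6 RPKM against 1.07 and 0.891 RPKM (log2 ratio 4.23 ± 0.12, SE, n = 2 against 2, limma adjusted p = 2.93e-07). These windows ranked 8 and 9 by mean Pol II RPKM and their replicates overlapped. All 4 windows of the muscle microRNAs were called higher than input, against 25.9% of the 1253 tested loci, whose median log2 ratio was -0.50.

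Between Mir1a-1 with Mir133a-2 and Mir133a-1, the order of Pol II levels was filled by 5 windows on chromosome 12. The highest was the run of hairpins from Mir770 to Mir136 (25.2 and 28.6 RPKM). The run from Mir341 to Mir370 had 21.5 and 23.3 RPKM, Mir882 21.9 and 21.0 RPKM, and 2 loci with clone names for hairpins (AC121784.4 with AC121784.3, and AC121784.2) a mean of 20.5 RPKM and of 20.3 RPKM. The replicates of both clone-named loci overlapped those of Mir133a-1, so their order is not set by these data. These windows lie inside that of the Mir379 to Mir410 run and share its reads. The Mir379 to Mir410 run itself (17.3 and 19.5 RPKM) overlapped Mir1b, so the order of these is not set either. Below them came Mir1894 on chromosome 17 (16.8 and 15.5 RPKM) and Mir22 on chromosome 11 (14.2 and 16.1 RPKM). These were the loci nearest to the muscle clusters in mean log2 Pol II RPKM over 2 libraries, and the measure says only that the levels were alike.

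**Figure D1:**
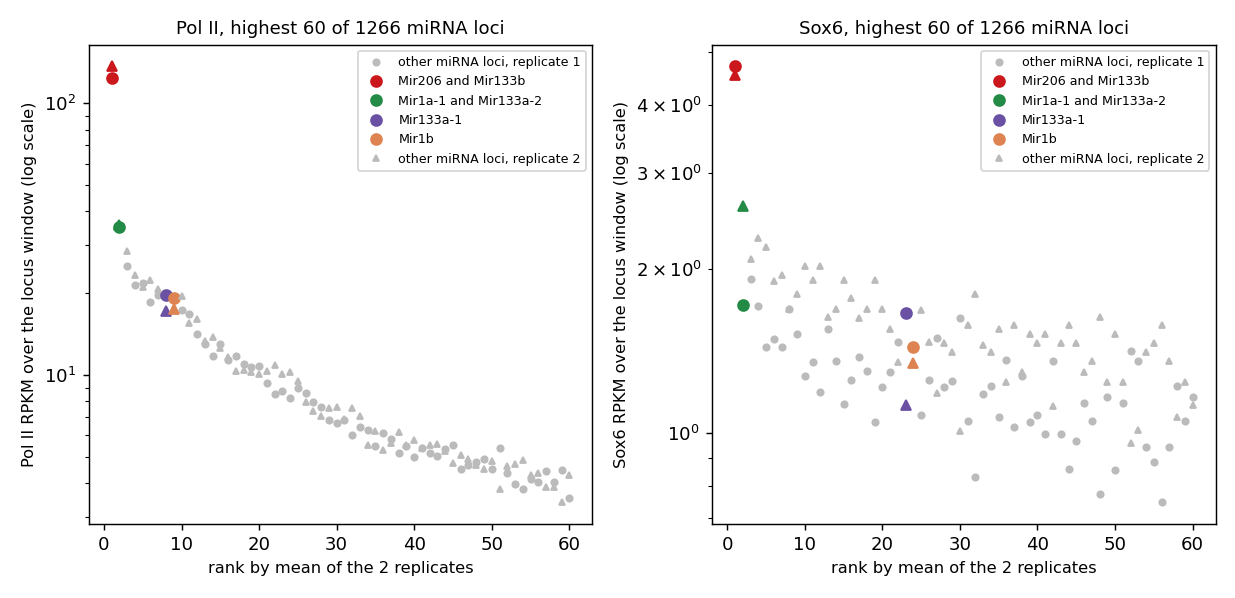
Pol II (left) and Sox6 (right) level in RPKM on a log axis over the window of the 60 highest of 1266 miRNA loci, ranked by the mean of the 2 replicates, with circles for replicate 1 and triangles for replicate 2. Mir206 with Mir133b (123.8 and 136.7 RPKM of Pol II) and Mir1a-1 with Mir133a-2 (35.0 and 35.6) lead both orders by the mean. The Sox6 replicates of Mir1a-1 with Mir133a-2 (1.72 and 2.60 RPKM) overlapped those of lower-ranked loci, so its place in that order is not set. Mir133a-1 and Mir1b rank 8 and 9 for Pol II and 23 and 24 for Sox6 by this mean, which does not take input into account. By log2 ratio to input they rank 16 and 15 for Pol II and 357 and 265 for Sox6.

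The other microRNAs of striated muscle had lower Pol II levels. Mir486 had 7.93 and 7.37 RPKM (log2 ratio 3.45 ± 0.12, SE, n = 2 against 2, rank 27), and Mir499 had 2.42 and 2.40 RPKM (log2 ratio 2.03 ± 0.13, SE, n = 2 against 2, rank 108). Mir208b had 0.592 and 1.17 RPKM (log2 ratio 1.09 ± 0.32, SE, n = 2 against 2, limma adjusted p = 0.0305), a call that held in 8 of 12 alternatives. Mir208a, the heart microRNA, had 0.430 and 0.569 RPKM and a log2 ratio of -0.01 ± 0.23 (SE, n = 2 against 2, limma adjusted p = 0.971). Among host genes, Ppargc1b, which hosts Mir378, had 4.20 and 3.72 RPKM, Myh7b, which hosts Mir499, 2.39 and 2.37 RPKM, and Ank1, which hosts Mir486, 1.09 and 1.07 RPKM, all called higher than input. Mir378 has no entry under that name. The window of a clone-named hairpin, AC116595.1, lies inside Ppargc1b and had 13.0 and 12.6 RPKM (rank 15), and whether it is Mir378 was not determined. Of the 5 host genes, 4 were called higher, compared with 36.3% of all tested genes. Myh7, the slow myosin gene that hosts Mir208b, had 0.950 and 1.22 RPKM (called higher), and Myh6, the cardiac myosin gene that hosts Mir208a, had 0.632 and 0.587 RPKM (log2 ratio 0.17, not called).

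Pol II along the clusters was followed in 1 kb tiles, of which 1942464 had at least 10 input reads genome-wide. Pol II was called higher than input in 4.47% of them. Within 50 kb of Mir206 and Mir133b it was called in 36 of 85 tested tiles. The tile that holds the Lincmd1 start near its end (chr1:20659001-20660000) had 28 and 52 Pol II reads, and the tile after it 169 and 300. The highest tile by log2 ratio was chr1:20662001-20663000, 6.59 kb before Mir206, with 351 and 647 Pol II reads against 44 and 28 input reads (log2 ratio 7.23). The tile that contains Mir206 held 250 and 462 Pol II reads. Pol II stayed high past Mir133b, with 130 and 286 reads in the tile centred 7.41 kb after the start of Mir206, and then fell to 15 and 32 in the next.

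The 7 Pol II peaks of replicate 1 and the 3 of replicate 2 over this cluster, joined across gaps of up to 1 kb, made a domain of 21.7 and 21.6 kb that contained both hairpins. It began 3.95 and 4.01 kb before the Lincmd1 start and ended 4.74 and 4.56 kb after Mir133b. By width it ranked 13 of 8147 domains in replicate 1 and 35 of 11981 in replicate 2. By Pol II RPKM it ranked 1 among the 180 and 433 domains of at least 5 kb. Upstream, where the annotation has no gene, Pol II peaks of both replicates lay 45.4 kb before Mir206 (1.14 and 1.64 kb wide) and about 25 kb before it (2.70 and 3.66 kb wide, counted from domain starts 24.9 and 24.6 kb away).

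At Mir1a-1 and Mir133a-2, Pol II was called in 42 of 107 tested tiles. The tile chr2:180120001-180121000, which holds the Mir1a-1hg start, had 9 input reads in all and was not tested. It held 29 and 42 Pol II reads, and the next tile 62 and 114. Between Mir1a-1 and Mir133a-2, 687 and 1280 Pol II reads were counted over 9.44 kb, or 47.3 and 49.1 RPKM. The highest tile by log2 ratio was not at the start but 12.8 kb after the start of Mir1a-1 (chr2:180136001-180137000), with 92 and 169 Pol II reads against 9 and 13 input reads (log2 ratio 6.95). Joined Pol II peaks covered 23.0 and 24.3 kb, from 4.42 and 4.76 kb before Mir1a-1 to 9.12 and 10.1 kb after Mir133a-2. Separate Pol II peaks of both replicates lay further upstream, in domains that began 27.6 and 27.0 kb before Mir1a-1 (1.82 and 2.38 kb wide) and 21.9 and 23.3 kb before it (0.70 and 3.48 kb wide), where the annotation has no gene. Smaller domains of both replicates began 12.3 and 12.1 kb before Mir1a-1 (0.38 and 0.20 kb wide), inside B230312C02Rik. B230312C02Rik, a non-coding gene on the minus strand that overlaps the Mir1a-1hg start, had 4.01 and 2.99 RPKM of Pol II (log2 ratio 2.34, called higher), and Gm14318, the protein-coding gene within 50 kb, had 0.330 and 0.184 RPKM (log2 ratio 0.08 ± 0.45, SE, n = 2 against 2, not called).

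Inside Mib1, Pol II was concentrated at the hairpins. The joined windows of Mir133a-1 and Mir1b (17.5 kb) made up 18.9% of the length of Mib1 and held 73.2% and 70.0% of its Pol II reads, compared with 24.8% and 24.8% of its input reads. In this stretch Pol II stood at 15.9 and 14.4 RPKM, and in the rest of Mib1 at 1.35 and 1.43 RPKM. Input was 1.04 and 0.978 RPKM in the stretch and 0.735 and 0.689 RPKM in the rest. Mib1 as a whole had 4.09 and 3.87 RPKM of Pol II and a log2 ratio of 2.37 (called higher). Read in the direction of Mir133a-1, opposite to Mib1, the highest tile by log2 ratio (chr18:10786001-10787000, 41 and 78 Pol II reads against 25 and 12 input reads, log2 ratio 5.16) was centred 0.94 kb upstream of Mir1b, the highest by reads (75 and 126 against 31 and 39, log2 ratio 4.96) was centred 1.94 kb upstream of it, and 14 adjacent tiles were called higher, from 10777001 to 10791000. The joined Pol II peaks covered 8.66 and 11.2 kb. ChIP-seq reads do not show the strand of transcription, so Pol II of Mib1 and of a microRNA transcript on the other strand cannot be told apart. On chromosome 1, Il17a, the protein-coding gene within 50 kb of Mir133b, had 0.181 and 0.202 RPKM of Pol II (log2 ratio -1.08, not called, but called lower without either Pol II library).

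**Figure D2:**
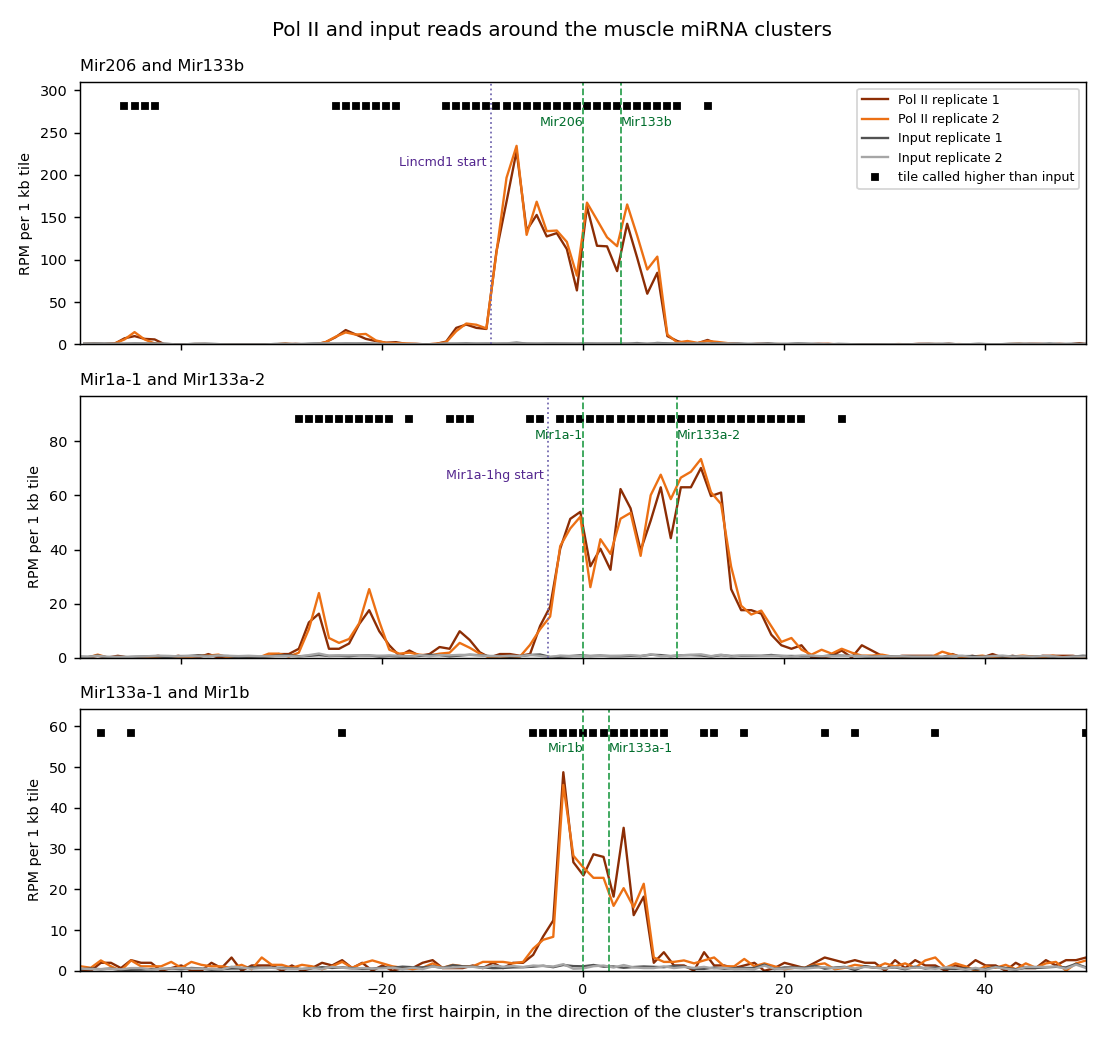
Pol II and input RPM in 1 kb tiles against distance in kb from the first hairpin, in the direction of the microRNA transcript (for Mir133a-1 and Mir1b, the minus strand). Lines are the 2 Pol II and 2 input libraries, squares mark tiles called higher than input, green dashes mark hairpins and purple dots the starts of the host RNAs. Pol II is above input in a block of tiles that contains the hairpins and runs past the last of them in all 3 clusters.

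Sox6 was compared with input over the same windows. Common Sox6 peaks more than 10 kb before the first hairpin or 2 kb after the last lie outside them. This leaves out all 3 common peaks at Mir206 and Mir133b and the farther of the 2 at Mir1a-1 and Mir133a-2. At Mir206 and Mir133b, 223 and 106 Sox6 reads stood against 388 and 405 input reads, or 4.70 and 4.55 RPKM against 1.11 and 1.05 RPKM. The log2 ratio was 2.10 ± 0.16 (SE, n = 2 against 2, limma adjusted p = 0.000909), and the window had the highest Sox6 RPKM of all 1266 miRNA loci in both replicates and ranked 3 by log2 ratio to input. At Mir1a-1 and Mir133a-2, 110 and 82 Sox6 reads stood against 307 and 349 input reads, or 1.72 and 2.60 RPKM against 0.652 and 0.671 RPKM (log2 ratio 1.68 ± 0.22, SE, n = 2 against 2, limma adjusted p = 0.0131), which ranked 7 by log2 ratio. When the pseudocount was set to the same RPM across libraries, this adjusted p was 0.0707. Sox6 was called higher in 1.76% of tested loci, 22 of 1253, in a count that other settings moved between 1 and 380 and that was 87 with the replicate number as a block.

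Sox6 was not called at the third cluster. The window of Mir133a-1 held 60 and 20 Sox6 reads, or 1.66 and 1.13 RPKM against 1.05 and 1.06 RPKM of input (log2 ratio 0.39 ± 0.21, SE, n = 2 against 2, limma adjusted p = 0.351). The window of Mir1b held 52 and 24 Sox6 reads, or 1.44 and 1.35 RPKM against 1.07 and 0.891 RPKM (log2 ratio 0.53 ± 0.18, SE, n = 2 against 2, limma adjusted p = 0.175). Without Sox6 replicate 2 the adjusted p was 0.000903 for Mir133a-1 and 0.00613 for Mir1b, and without Sox6 replicate 1 it was 0.0078 for Mir1b, in fits where the remaining Sox6 library is taken to vary like the inputs. Within Mib1, the joined windows held 39.1% and 35.2% of the Sox6 reads of the gene, against 24.8% and 24.8% of its input reads, and Sox6 was 1.47 and 1.24 RPKM in them and 0.532 and 0.532 RPKM in the rest. The Sox6 share was above the input share in both replicates, a difference that was not tested. The difference in Sox6 between the clusters was not tested either.

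Sox6 RPKM was also higher over genes with high Pol II, and so was input. Over the 50 gene spans of at least 5 kb with the highest Pol II (14.4 to 99.5 RPKM in the mean), the median Sox6 mean was 1.4 RPKM and the range 0.903 to 4.46 RPKM, compared with a median of 0.532 RPKM over all 17403 tested genes of that length. Input moved the same way, with a median mean of 0.784 RPKM over the 50 and 0.497 RPKM over all. The Sox6 mean at Mir206 and Mir133b, 4.63 RPKM, was above all 50, that at Mir1a-1 and Mir133a-2, 2.16 RPKM, was below 7 of them, and that at Mir133a-1, 1.39 RPKM, was below 25 of them. Of all 22662 tested gene spans, which include short genes, 8 had a higher Sox6 mean than Mir206 and Mir133b, 82 than Mir1a-1 and Mir133a-2, and 480 than Mir133a-1. The part of Pol II level or of input level in these Sox6 values was not tested.

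At Mir206 and Mir133b, Sox6 was lower near the Lincmd1 start than in both stretches further along, in each replicate, whereas Pol II was highest near the start. In the 5 kb from the Lincmd1 start, where Pol II was 158 and 166 RPKM, Sox6 was 1.88 and 2.18 RPKM, or 1.60-fold and 1.89-fold input. From Mir206 to Mir133b Sox6 was 7.95 and 4.39 RPKM, or 7.87-fold and 4.26-fold input. In the 5 kb after Mir133b it was 7.57 and 9.40 RPKM, or 6.40-fold and 10.5-fold input, while Pol II was 80.6 and 101 RPKM. The 2 Sox6 replicates thus differed between the hairpins, where replicate 1 was higher, and were both high after Mir133b. At Mir1a-1 and Mir133a-2, Sox6 was 1.56 and 1.80 RPKM between the hairpins and 6.83 and 9.81 RPKM in the 5 kb after Mir133a-2 (8.63-fold and 10.2-fold input), while Pol II was 47.3 and 49.1 RPKM and 62.1 and 64.7 RPKM in the same stretches. In the 5 kb from the Mir1a-1hg start, which reaches past Mir1a-1, Sox6 was 1.21 and 2.72 RPKM, or 2.32-fold and 5.16-fold input. Pol II there was 41.2 and 38.4 RPKM. In RPKM, Sox6 was thus lower in this stretch than between the hairpins in replicate 1 and higher in replicate 2. Between the hairpins Sox6 was 2.31-fold and 2.60-fold input. Relative to input, the 2 stretches were thus close in replicate 1, and the stretch from the start was higher in replicate 2. In the 5 kb after Mir133a-1, Sox6 was 1.67 and 1.63 RPKM against 0.892 and 0.899 RPKM of input.

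Of the 1 kb tiles, 0.473% were called higher for Sox6 genome-wide. Within 50 kb of Mir206 and Mir133b, 16 of 85 tested tiles were called, of which 12 formed an unbroken run from chr1:20665001 to 20677000. The highest log2 ratio in the run was 3.65, in the tile chr1:20675001-20676000 after Mir133b, with 23 and 17 Sox6 reads against 13 and 23 input reads. Single called tiles lay upstream at the Pol II peaks described above, with 9 and 4 Sox6 reads against 16 and 18 input reads 45.6 kb before Mir206 and 12 and 9 against 24 and 22 at 23.6 kb. At Mir1a-1 and Mir133a-2, 12 of 107 tiles were called, 8 of them in a run from chr2:180131001 to 180139000, with the highest log2 ratio of 4.37 in the tile that begins at 180136001 (27 and 16 Sox6 reads against 9 and 13 input reads). At Mir133a-1 and Mir1b, 1 of 104 tiles was called (14 and 4 Sox6 reads against 31 and 39 input reads, log2 ratio 1.34), and it was lost without either input library and with the replicate number as a block. All of these Sox6 tiles were also called for Pol II, as were 41.0% of the 9197 Sox6 tiles called genome-wide. limma voom, which weights low counts, called 6 Sox6 tiles in the whole genome and 0 near these clusters.

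**Figure D3:**
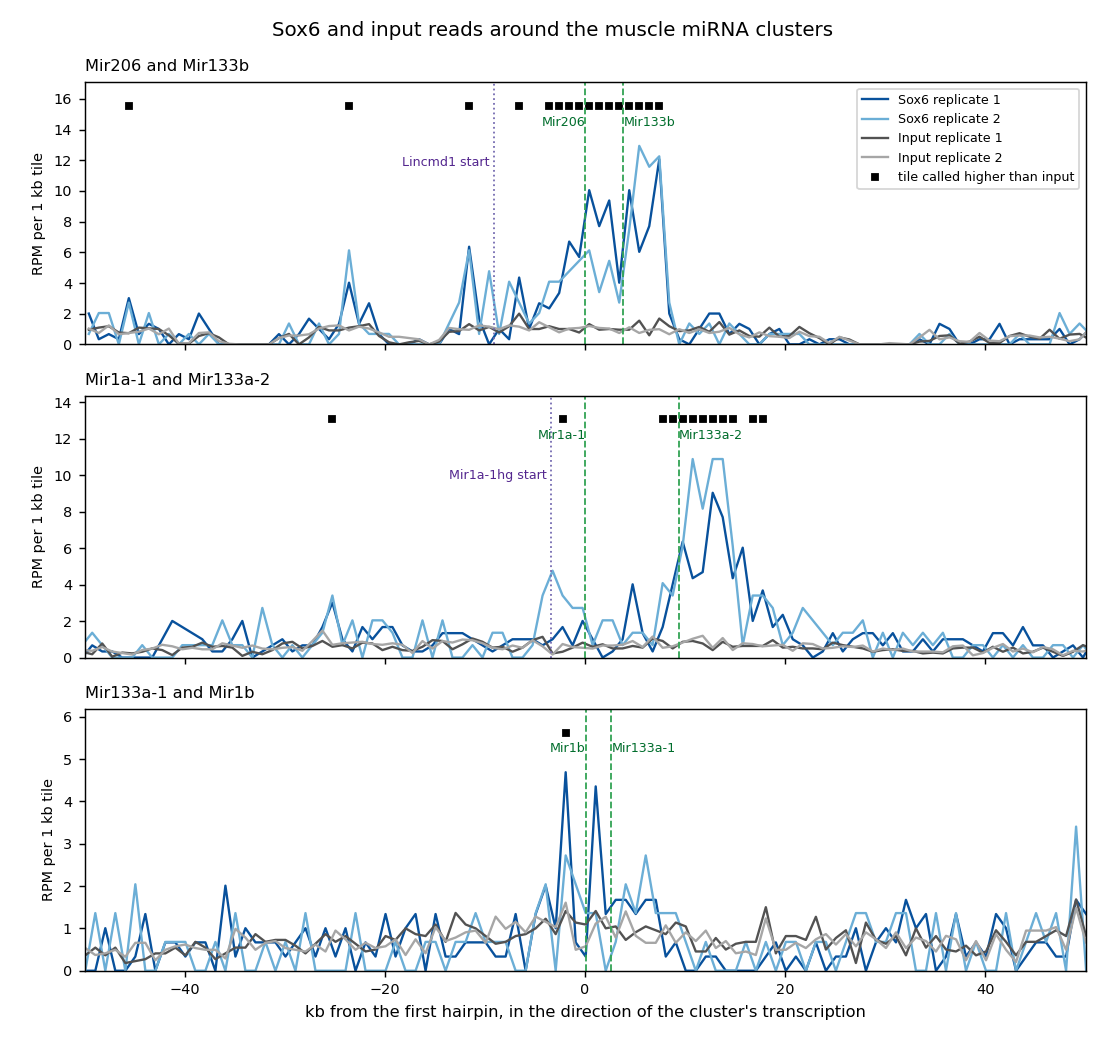
Sox6 and input RPM in 1 kb tiles against distance in kb from the first hairpin, drawn as for Pol II but on a scale of its own. Sox6 of both replicates is highest after Mir133b and after Mir133a-2, and lower at Mir133a-1 and Mir1b, where a single tile is called.

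The peaks that the authors called lay in fewer places than the called tiles. No list had a Sox6 peak in 4 of the 16 called tiles at Mir206 and Mir133b, among them those 45.6 and 23.6 kb before Mir206, or in 6 of the 12 at Mir1a-1 and Mir133a-2. Within 50 kb of Mir206 and Mir133b there were 10 Sox6 peaks in replicate 1, 6 in replicate 2 and 3 in the common list. Within 50 kb of Mir1a-1 and Mir133a-2 there were 4, 3 and 2. Within 50 kb of Mir133a-1 and Mir1b there was 1 peak, in replicate 1 (chr18:10787672-10787711), and none in the other lists. The centre of each of the 16 Sox6 replicate peaks at Mir206 and Mir133b lay in a Pol II peak of both replicates, as did 6 of 7 at Mir1a-1 and Mir133a-2 and 0 of 1 at Mir133a-1 and Mir1b, where the centre lay in a Pol II peak of 1 replicate. Over all Sox6 peaks the share in both Pol II lists was 6.93% for replicate 1 and 8.82% for replicate 2. All 9 peaks of replicate 1 other than the common peak 11.2 kb upstream lay between 6.88 kb before Mir206 and 3.24 kb after Mir133b, and those of replicate 2 other than that peak lay between 1.07 and 3.94 kb after Mir133b.

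All 5 common peaks had more Sox6 than input in windows of 450 bp (n = 2 against 2, limma adjusted over 1048 peaks), where 96.7% of tested common peaks were called, so the call says little about these in particular. The peak 11.2 kb before Mir206 had 18 and 9 Sox6 reads against 10 and 15 input reads. The peak 2.54 kb after Mir133b had 12 and 12 against 6 and 14, and that 3.36 kb after it 23 and 6 against 17 and 10. The peaks 1.83 and 4.28 kb after Mir133a-2 had 14 and 7 against 7 and 12, and 14 and 11 against 13 and 10. These reads chose the peaks, so the values describe them.

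Each peak called in a replicate was also read in the other replicate, whose reads did not enter that call. Some of these peaks were called in both replicates, within 50 bp of each other: 3 of 10 and 3 of 6 at Mir206 and Mir133b, and 2 of 4 and 2 of 3 at Mir1a-1 and Mir133a-2, compared with 35.6% of all peaks of replicate 1 and 59.3% of those of replicate 2. The 10 peaks of replicate 1 at Mir206 and Mir133b had log2 ratios of Sox6 to input between 1.11 and 4.21 in replicate 2, with a median of 2.62, and the median over all 2888 peaks of replicate 1 was 2.85. The 6 peaks of replicate 2 there had ratios between 1.83 and 3.82 in replicate 1, with a median of 2.87 against 2.88 over all 1734 peaks of replicate 2. At Mir1a-1 and Mir133a-2 the medians were 3.27 for 4 peaks of replicate 1 and 2.98 for 3 peaks of replicate 2. The peak beside Mir1b, with 8 Sox6 reads against 12 input reads in replicate 1, had 3 against 18 in replicate 2, a log2 ratio of 1.64. The medians at the first 2 clusters lay between the quartiles of their lists (1.99 and 3.58 for replicate 1, 2.11 and 3.62 for replicate 2). Some neighbouring windows overlap and share reads.

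**Figure D4:**
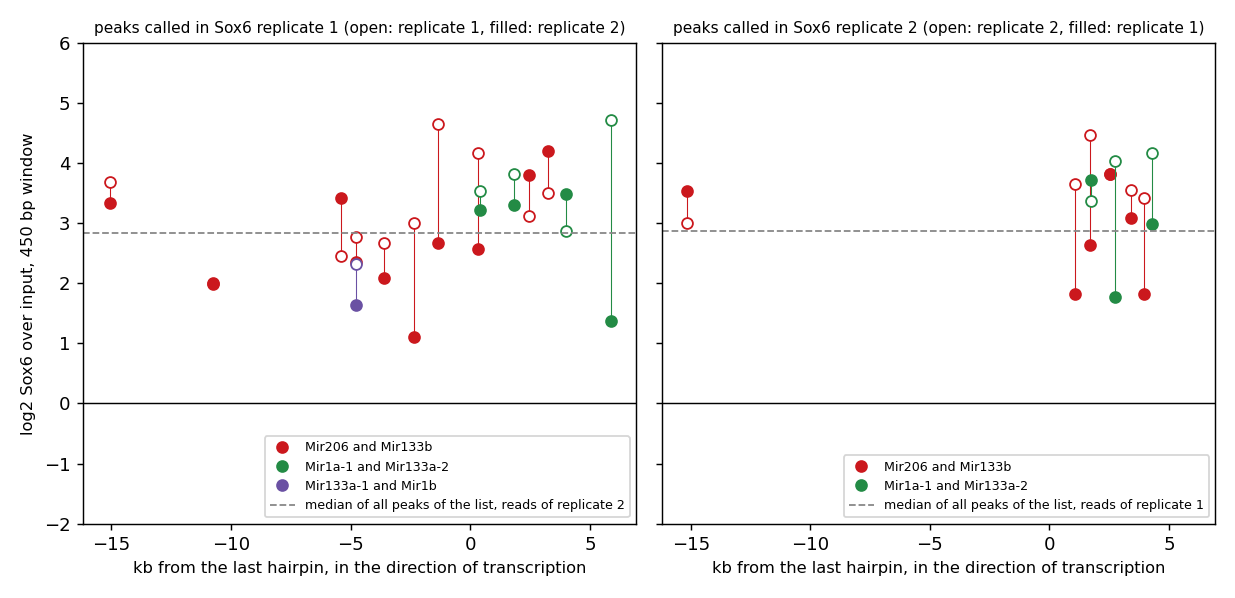
Log2 ratio of Sox6 to input in 450 bp windows at the Sox6 peaks of replicate 1 (left) and replicate 2 (right), against distance in kb from the last hairpin in the direction of transcription. Open circles give the replicate that called the peak, filled circles the other replicate, and the dashed line its median over all peaks of the list, 2.85 (left) and 2.88 (right). All filled circles lie above 0, as do 2780 of 2888 (left) and 1708 of 1734 (right) peaks of the whole lists.

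Pol II was then read over genes known to act before and after these microRNAs, in lists set by role. Of 10 genes known to regulate the clusters, 9 were called higher than input and none lower (36.3% and 23.4% of all tested genes), with a median log2 ratio of 2.43 against 0.12 over all tested genes. The highest were Myog, a MyoD family factor (53.6 and 59.1 RPKM), Myod1 (33.0 and 33.7 RPKM) and Mef2d (8.0 and 8.66 RPKM). Twist1, a repressor of myogenesis, had no Pol II read in either library, but only 4 and 15 input reads, and was not called. With so few input reads in the larger input libraries, the lack of Pol II reads does not show that Pol II was absent. Of 16 genes for microRNA processing and action, 11 were called higher and 3 lower (36.3% and 23.4% of all tested genes), with a median log2 ratio of 0.59 against 0.12 over all. Tarbp2, a Dicer1 partner, had 4.15 and 4.03 RPKM, Eif2c2, which encodes Argonaute 2, 3.08 and 3.19 RPKM, and Ran, needed for nuclear export, 1.37 and 1.70 RPKM. Those called lower were Eif2c3 and Eif2c4, which encode other Argonautes, and Lin28b, an inhibitor of let-7 processing, a count that was 5 without Pol II replicate 1 and 1 without Input replicate 1.

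Of 30 genes known or proposed as targets of miR-1, miR-206 or miR-133, 20 were called higher than input, 7 lower and 3 in neither direction, with a median log2 ratio of 1.2 against 0.12 over all tested genes. Of all tested genes 36.3% were called higher and 23.4% lower, so the number of targets called lower was near the background. The highest Pol II was at Mef2c, a muscle transcription factor (6.00 and 5.87 RPKM), Runx1 (5.29 and 5.54 RPKM), Cdc42, a small GTPase (4.67 and 5.46 RPKM), and Srf, serum response factor (3.62 and 2.72 RPKM). Mef2c and Srf also stand in the list of regulators. Those called lower were Pax3, Gja1, Pola1, Igf1, Bdnf, Prdm16 and Meox2, and they include Gja1, the gap junction protein connexin 43 (0.149 and 0.331 RPKM), and Pola1, the catalytic subunit of DNA polymerase alpha (0.135 and 0.139 RPKM). Targets are controlled after transcription, so Pol II at their genes is not a readout of the microRNAs.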

How the data were processed

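The authors aligned single-end reads with Bowtie 0.12.5 (named in the submitters' processing notes) to mm9 and ran SISSRs on each library, with its matching input as background, and deposited read positions and peak positions, with no counts or normalization. Sox6 peaks within 50 bp in both replicates form their common list. From these files reads were counted by 5' end in miRNA windows, gene spans, 1 kb tiles and 450 bp peak windows, with GENCODE vM1 as annotation (28086 of 37273 genes matched RefSeq and 22662 passed the filter). Promoter and mature sequences came from RefSeq GRCm38.p6, and no coordinate was converted.

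limma 3.58.1 (R 4.3.3) with a trend was fitted to log2 RPM after adding 0.5 reads, for features with at least 10 input reads in both inputs together, with Benjamini-Hochberg adjustment at 0.05, separately for Sox6 and Pol II, and was tested on simulated data. The groups shared the inputs. Counts were made from the deposited read positions, and the main fits used log2 RPM rather than a count model. The 0.5 reads added are more RPM in the smaller Sox6 and Pol II libraries than in the inputs. The median Sox6 log2 ratio over 1 kb tiles was 0.21, and -1.35 with an equal pseudocount in RPM. Replicates are the 2 libraries of each group, and p-values cover these libraries only. limma with a trend draws the spread of each feature toward that of features of similar level. A p-value therefore does not measure the spread of its own feature alone. For example, the tile chr2:180139001-180140000, with 18 and 1 Sox6 reads, had an SE of 0.53. The next tile, with 6 and 5, had 0.51. Tile calls thus do not show that the replicates of a tile were alike. The members, gene lists and tests were chosen with earlier results of these data known. Genes were named by rule: the hairpins, genes that overlap them or protein-coding genes within 50 kb, deposited peaks within 50 kb, the miRNA loci nearest in Pol II level, and in each list those with the highest Pol II. For the lists, genes called lower were also named, chosen after their values were seen. Alternatives were other pseudocounts, windows and distances, voom, no filter, repeated positions counted once, 5' ends moved by 75 bp, a replicate block, and each library left out.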

Additional observations from a re-analysis of the deposited data

How the results depend on the processing

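Pol II at all 4 windows kept its call in 12 of 12 alternatives, with log2 ratios of 6.57 to 6.98 at Mir206 with Mir133b, 5.20 to 6.07 at Mir1a-1 with Mir133a-2, 3.45 to 4.68 at Mir133a-1 and 3.69 to 4.63 at Mir1b. Sox6 at Mir206 with Mir133b kept its call in 11 of 11 (1.91 to 2.47). At Mir1a-1 with Mir133a-2 the call held in 10 of 11, and with an equal pseudocount in RPM the log2 ratio was 1.67 (adjusted p = 0.0707). Leaving out 1 library at a time, Sox6 at Mir133a-1 ranged from 0.12 to 0.66 and at Mir1b from 0.40 to 0.66. With 20 kb upstream they were 0.10 and 0.06, and with 5 kb upstream 0.71 and 0.50, none of these called. Of all alternatives, Mir133a-1 was called without Sox6 replicate 2 (0.66), Mir1b without Sox6 replicate 1 (0.49) or 2 (0.57).

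Counts over the whole series moved more, and the cause was not tested. Leaving out 1 library gave 215 to 389 miRNA loci higher for Pol II and 5 to 380 for Sox6, 2445 to 448181 Sox6 tiles, 45728 to 342518 Pol II tiles, and 3303 to 7200 genes with Pol II lower than input. Sox6 was higher at 1 locus with an equal pseudocount, 62 with voom, 87 with the replicate block and 10 with 20 kb upstream. It was higher in 16658 tiles with an equal pseudocount, in 6 with voom and in 343905 with no filter, and Pol II in 1463 with voom and 448283 with no filter. With an equal pseudocount 416829 tiles were called lower for Sox6 and 822496 for Pol II, against 13 and 243 with 0.5 reads added. Of Pol II calls over miRNA loci, 57.3% were higher, against 87.8% with voom, 74.4% with 5 kb and 45.2% with 20 kb upstream, 38.7% and 41.7% without Pol II replicates 1 and 2, and 99.5% without Input replicate 1, while all calls were higher without Input replicate 2. Windows of 200 bp left fewer peaks to test, with 592 common peaks called in all and 3 of the 5 near the clusters.

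Near Mir206 and Mir133b, Sox6 tiles called numbered 0 with voom, 32 with no filter and 11 to 27 without 1 library (27 without Sox6 replicate 1), and Pol II tiles 22 with voom. Near Mir1a-1 and Mir133a-2 they numbered 0, 23 and 7 to 53 (7 without Input replicate 1, 31 without Sox6 replicate 2, 53 without Sox6 replicate 1), and Pol II tiles 21 with voom. Near Mir133a-1 and Mir1b they numbered 0 with voom and with the replicate block, 3 with no filter and 0 to 16 without 1 library, and Pol II tiles 8 with voom and 13 to 60 without 1 library. Within 20 kb of Mir206 and Mir133b there were 7 and 3 Pol II peaks in replicates 1 and 2, and 9 in replicate 2 within 100 kb. The log2 ratio of Gm14318, not called, was -0.069 with an equal pseudocount, and from -0.34 to 0.51 without 1 library (-0.34 without Pol II replicate 1, -0.04 without Input replicate 1).

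The study's methods give each ChIP experiment an input of its own, so libraries of the same number may belong together, though no label says so. Their deviations from the group means, of Sox6 or Pol II with input and of Sox6 with Pol II, had correlations of -0.067 to 0.048. The replicate block changed no call at the 4 windows. With 1468604 to 2985437 reads in each Sox6 library, no tile near the clusters held more than 36 Sox6 reads in a library, so single ratios are imprecise.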
